A study of Drosophila melanogaster with 15 samples.

Results

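The genes described here code for cuticle proteins, for chitinases and their relatives, and for proteins that bind chitin in the fly. They were chosen by name, as every symbol in the count files that begins with Twdl (Tweedle), with Cht or Idgf followed by a digit, or with obst-. The rule found 49 of the 15682 gene symbols: 26 Tweedle genes, 10 chitinases, 5 imaginal disc growth factors (Idgf) and 8 obstructors. Of these, 47 had a count in at least 1 library, 24 had a count in every library, and TwdlQ and TwdlZ had none. After genes with too few counts were set aside, 27 of the 49 genes were tested: 12 of the Tweedle genes, 7 of the chitinases, all 5 Idgf genes and 3 of the obstructors.

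Insect cuticle is made of chitin fibres and proteins that bind them, and the epidermis and tracheal cells secrete most of it. At each moult, chitinases cut the old chitin while new chitin is polymerised and ordered underneath. Tweedle proteins are insect cuticle proteins that affect body shape, and obstructor proteins carry chitin-binding domains and sit in the chitin matrix. Idgf proteins are secreted, share the chitinase fold but lack the catalytic residue of active chitinases, and were first described as growth factors for imaginal disc cells. None of these genes is a textbook muscle gene.

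RNA came from filleted Drosophila melanogaster larvae, which are mostly body wall muscle with the epidermis still attached, so the cells that make cuticle were in the sample. All 5 genotypes carried the Mef2-Gal4 driver, which is active in muscle and also in visceral muscle and some brain cells, and each had 3 biological replicates. Mef2>+ carried the driver and no second transgene, and served as control for Mef2>Deaf1, which overexpresses the transcription factor Deaf1, and for Mef2>Gsk3CA (stock 5255), which was made to express constitutively active Gsk3. Mef2>whiteRNAi (stock 33623), a hairpin against the eye pigment gene w, served as control for Mef2>Deaf1RNAi (stock 32512), a hairpin against Deaf1. The labels say larva and give no age or sex.

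The libraries held 16186361 to 32756446 counts on genes, and the 49 genes took 0.495% to 0.574% of them. The targeted genes were checked first. The gene w was lower in Mef2>whiteRNAi than in Mef2>+ (log2 fold change −1.48, SE 0.19, adjusted p = 0.00099). Deaf1 was lower in Mef2>Deaf1RNAi than in Mef2>whiteRNAi (log2 fold change −0.87, SE 0.10, adjusted p = 0.0009). In Mef2>Deaf1 it was higher than in Mef2>+ in 3 of 3 libraries but did not pass the test (0.31, SE 0.10, adjusted p = 0.058). The Gsk3 gene sgg was not raised in the libraries labelled Gsk3CA (0.12, SE 0.24, adjusted p = 0.779), and these are called the libraries labelled Gsk3CA throughout. Replicate 3 of Mef2>+ and replicate 3 of the libraries labelled Gsk3CA stood apart from the other replicates of their genotype: across genes their log2 levels correlated with those replicates at 0.93 to 0.95 and at 0.92 to 0.94, against 0.99 between replicates 1 and 2 in both genotypes. Calls that changed without either library are given with and without it.

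The marker genes of other tissues also differed between libraries, and levels here are in CPM, counts scaled to a common effective library size. Summed over 10 muscle markers, the level ran from 61443 to 94074 CPM in Mef2>+ and from 60364 to 65970 in Mef2>Deaf1RNAi, but from 17982 to 26373 in Mef2>Deaf1, 15413 to 42233 in Mef2>whiteRNAi and 38808 to 53386 in the libraries labelled Gsk3CA. Summed over 6 epidermis markers, which include the cuticle tanning genes ple, Ddc and e, it was 515 CPM in Mef2>+ replicate 3, 638 and 1855 in replicates 2 and 1 labelled Gsk3CA and 2229 in Mef2>whiteRNAi replicate 3, and 5643 to 22524 in the other 11 libraries. Of the epidermis list, y was near 0, at up to 1.7 CPM. Between libraries the sum moved mainly with ple (25.4 to 12663 CPM), Ddc (111 to 3557) and e (15.8 to 6097). The marker grh was highest of the 15 libraries in Mef2>+ replicate 3 (222 CPM). It measured 159, 174 and 122 CPM in replicates 1 to 3 labelled Gsk3CA, the reverse order of the sum. Cad99C was lowest in replicate 2 labelled Gsk3CA but not low in replicate 3 of Mef2>+ or Mef2>whiteRNAi (130 and 133 CPM). The sum is therefore not read as epidermis content. In bulk samples, fewer cells of a type and less RNA per cell cannot be told apart.

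Per kilobase of exon, taken from the BDGP6 annotation, the highest level among the 49 genes in Mef2>+ belonged to Cht3 (named Cht10 in BDGP6), which codes for a large chitinase with several catalytic domains. Its mean was 387 CPM per kb there and 368 to 469 in the other 4 genotypes, the highest in each. In Mef2>+, obst-E followed at 302, then Idgf4 at 259, Cht7 at 141, obst-A at 137 and Cht5 at 93.0. The order was not the same elsewhere: Idgf4 came next after Cht3 in the other 4 genotypes (159 to 308 CPM per kb), where obst-E measured 76.6 to 148. The highest Tweedle gene also differed by genotype. It was TwdlP in Mef2>+ (32.0 CPM per kb), TwdlO in the libraries labelled Gsk3CA (19.8), TwdlU in Mef2>Deaf1 (6.72) and TwdlX in Mef2>whiteRNAi and Mef2>Deaf1RNAi (8.61 and 6.04). Of the 26 Tweedle genes, 14 were not tested. Among the 22 untested genes no library exceeded 0.594 CPM (TwdlM). For TwdlQ and TwdlZ, a count of 0 allows levels of up to 0.0877 to 0.202 CPM per library, for counting error only.

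Cht3 alone took a median of 54.9% of the summed CPM of the 49 genes. It measured 3104, 3393 and 2073 CPM in Mef2>+, 2703, 2523 and 2907 in Mef2>Deaf1, and 2862, 2786 and 3311 in the libraries labelled Gsk3CA. It measured 2715, 2880 and 2804 CPM in Mef2>whiteRNAi and 3207, 3469 and 3700 in Mef2>Deaf1RNAi. The gene did not pass the test in any of the 4 comparisons. The nearest case was Mef2>Deaf1RNAi against Mef2>whiteRNAi, where the libraries did not overlap (0.31, SE 0.16, adjusted p = 0.266).

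**Figure D1:**
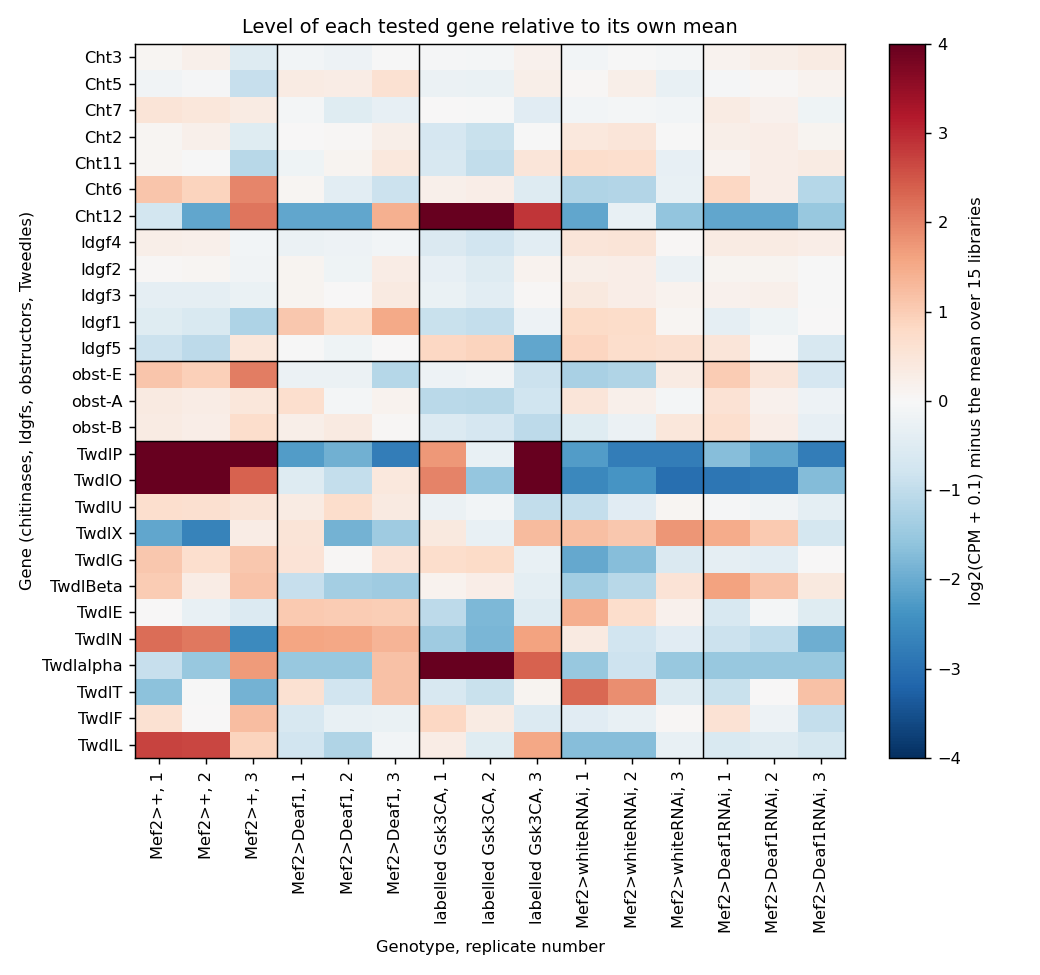
Level of the 27 tested genes (rows, by family and then by mean level per kb) in the 15 libraries (columns), as log2(CPM + 0.1) minus the gene's own mean; red is above and blue below that mean, and the colour scale ends at 4 in either direction. TwdlP and TwdlO stand out in Mef2>+ and in replicate 3 labelled Gsk3CA, and Cht12 and Twdlalpha in the libraries labelled Gsk3CA, while Cht3 varies little.

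The genotypes were compared in 4 ways by a quasi-likelihood test in edgeR, with p-values adjusted over all 10930 genes tested and a threshold of 0.05. Mef2>Deaf1RNAi against Mef2>whiteRNAi gave 0 of 27 genes past it, where 8.81% of all tested genes were called (5.48% higher and 3.33% lower). With no adjustment (p under 0.05) the count was 5 of the 27, where all genes gave 24.7%; DESeq2 called 3 of the genes and limma voom 1. Mef2>Deaf1 against Mef2>+ gave 3 higher and 7 lower, with 12.4% of all genes called (5.06% higher and 7.38% lower). At an unadjusted p under 0.05 there were 12 of the 27, against 26.1% of all genes. These shares are the background against which the counts of the 27 genes are read.

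The libraries labelled Gsk3CA against Mef2>+ gave 0 higher and 6 lower, with 14.1% of all genes called (5.19% higher and 8.87% lower). With no adjustment (p under 0.05) the count was 2 higher and 7 lower, against 34.8% of all genes, and neither DESeq2 nor limma voom called any gene higher. The comparison of the controls, Mef2>whiteRNAi against Mef2>+, gave 2 higher and 8 lower, with 16.5% of all genes called (6.3% higher and 10.2% lower). At an unadjusted p under 0.05 there were 14 of the 27, against 33.4% of all genes. Genes whose libraries did not overlap between the groups compared numbered 2 higher and 4 lower in the RNAi comparison, 4 and 9 for Mef2>Deaf1, 2 and 8 for the libraries labelled Gsk3CA and 5 and 8 between the controls. Over all genes 30.9%, 33.2%, 36.5% and 33.3% did not overlap. Without Mef2>+ replicate 3, 4 of the 10 genes called for Mef2>Deaf1, 5 of the 6 for the libraries labelled Gsk3CA and 8 of the 10 for Mef2>whiteRNAi were still called, and without replicate 3 labelled Gsk3CA, 2 of the 6 were. Fits that leave out a replicate also lose precision, so values from these fits are given with the calls lost.

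The last 3 comparisons share the Mef2>+ libraries. A gene that is high or low in those libraries therefore enters all 3 comparisons, and 8 of the 10 genes called in Mef2>Deaf1 against Mef2>+ were called in the same direction in Mef2>whiteRNAi against Mef2>+. The difference between the Deaf1 RNAi effect and the Deaf1 overexpression effect was also tested, with each effect taken against its own control. It was positive for 5 genes and negative for 3, with 16.2% of all genes called (9.42% positive and 6.78% negative). With no adjustment (p under 0.05) the count was 12 of the 27, against 29.9% of all genes. The median log2 fold change of the 27 genes was 0.01 in the RNAi comparison, −0.13 for Mef2>Deaf1, −0.44 for the libraries labelled Gsk3CA and −0.48 between the controls, beside −0.05, −0.02, −0.04 and −0.02 over all tested genes. TwdlL passed the filter on low counts only through Mef2>+, and Cht12 and Twdlalpha only through the libraries labelled Gsk3CA. Such genes had to differ, so these counts and medians describe the 27 genes and not the families.

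**Figure D2:**
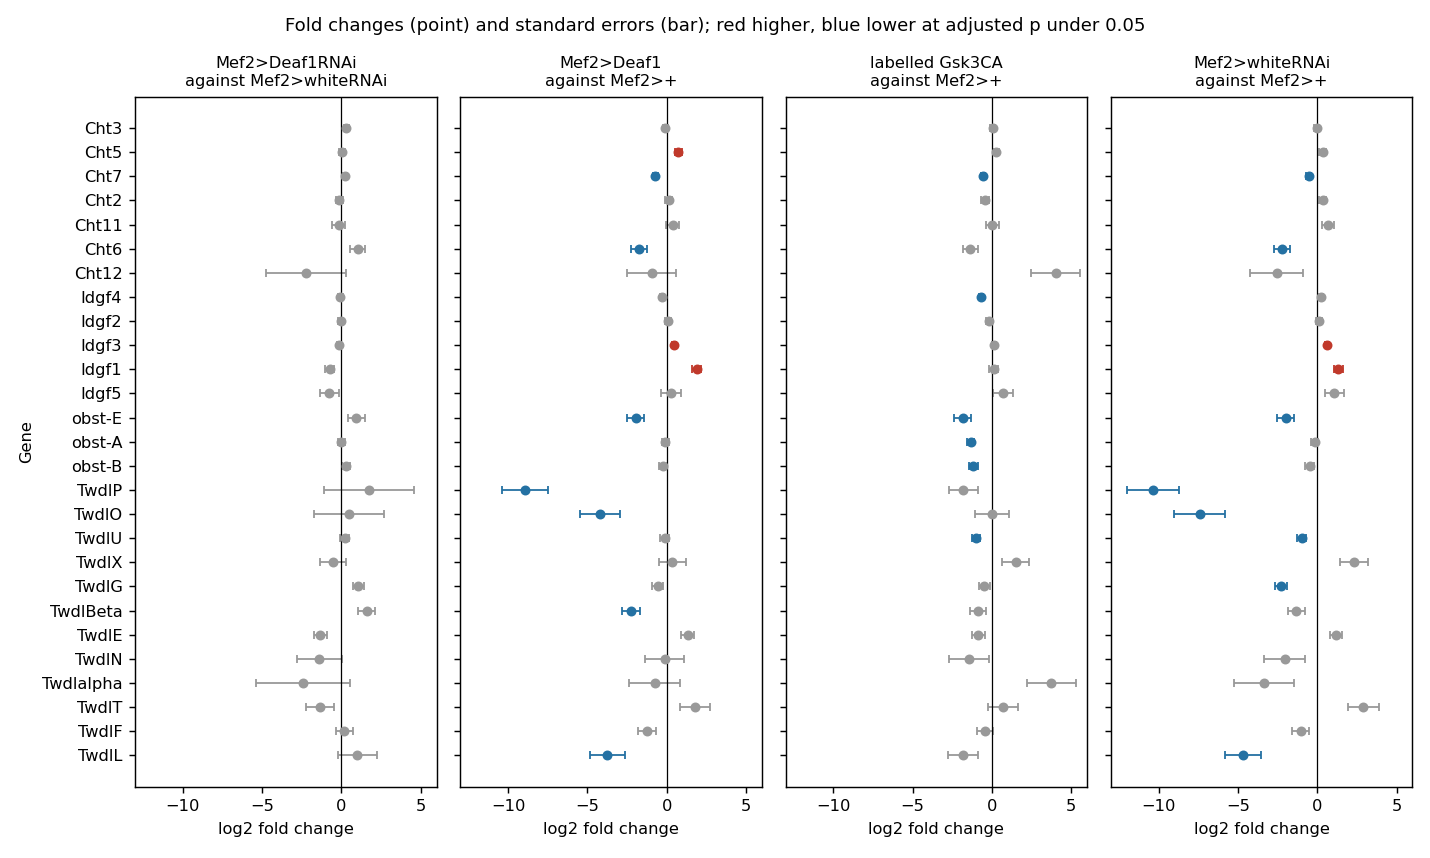
Log2 fold change (point) and standard error (bar) of the 27 tested genes in the 4 comparisons; red points are higher and blue points lower at an adjusted p under 0.05, and grey points did not pass. No point is coloured in Mef2>Deaf1RNAi against Mef2>whiteRNAi. The largest changes are those of TwdlP in Mef2>Deaf1 and in Mef2>whiteRNAi against Mef2>+, and of TwdlO in Mef2>whiteRNAi against Mef2>+.

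The Tweedle genes held the largest fold changes. In the BDGP6 gene order, 13 of the 26 lie together on chromosome arm 3R, in the order TwdlM, TwdlP, TwdlB, TwdlL, TwdlO, TwdlK, TwdlJ, TwdlN, TwdlH, TwdlR, TwdlS, TwdlD and TwdlQ. Only TwdlP, TwdlL, TwdlO and TwdlN of these had enough counts to be tested. For TwdlP and TwdlO, no library of Mef2>Deaf1, Mef2>whiteRNAi or Mef2>Deaf1RNAi reached the Mef2>+ libraries.

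TwdlP measured 32.9, 27.1 and 12.6 CPM in Mef2>+, and at most 0.11 CPM in any library of Mef2>Deaf1, Mef2>whiteRNAi or Mef2>Deaf1RNAi. Those values are 1272 counts over the 3 Mef2>+ libraries against 3 counts over the Mef2>Deaf1 libraries and 1 over the Mef2>whiteRNAi libraries. The ratio of pooled CPM was 546 for Mef2>+ over Mef2>Deaf1 (exact 95% interval 186 to 2652) and 1906 for Mef2>+ over Mef2>whiteRNAi (341 to 75342); these Clopper-Pearson intervals cover counting error only. The adjusted p-values were 0.0027 and 0.0026, and both calls held without any single replicate. In the libraries labelled Gsk3CA, TwdlP measured 2.16, 0.452 and 18.5 CPM. Replicate 3 thus lay among the Mef2>+ libraries and the other replicates below them, and the comparison did not pass (−1.80, SE 0.92, adjusted p = 0.189); without replicate 3 labelled Gsk3CA it passed (−4.07, adjusted p = 0.0056).

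TwdlO, 3 genes further along past TwdlB and TwdlL, measured 22.7, 19.4 and 5.81 CPM in Mef2>+. It measured 0.707, 0.486 and 1.44 CPM in Mef2>Deaf1, 0.093, 0.123 and 0.0407 in Mef2>whiteRNAi, and 0.0549, 0.063 and 0.245 in Mef2>Deaf1RNAi. No library of these 3 genotypes overlapped Mef2>+. The gene fell in Mef2>Deaf1 (−4.20, SE 1.26, adjusted p = 0.049) and in Mef2>whiteRNAi (−7.41, SE 1.60, adjusted p = 0.0095) against Mef2>+. Leaving out 1 replicate at a time, the first value ran from −4.73 to −3.85 and the call was lost in all 6 fits (adjusted p of 0.060, without Mef2>+ replicate 3, to 0.157), while the second ran from −7.81 to −7.07 and was called in all 6. The libraries labelled Gsk3CA spread over the whole range, at 4.38, 0.291 and 43.3 CPM, and replicate 3 held the highest TwdlO level of the 15 libraries. In these 3 libraries the summed epidermis markers (1855, 638 and 11021 CPM) had the same order of replicates as TwdlP and TwdlO. A summed list of receptor and response genes of the moulting hormone ecdysone (2562, 2308 and 4976 CPM) had that order too. The single epidermis marker grh had the reverse order (159, 174 and 122 CPM) and was highest in Mef2>+ replicate 3. Within Mef2>+ both sums, TwdlP and TwdlO were all lowest in replicate 3. In Mef2>Deaf1, where TwdlP and TwdlO were lower than in Mef2>+, the epidermis markers summed to 5643 to 11383 CPM. Their part in the Tweedle levels was not tested.

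TwdlL lies between TwdlP and TwdlO and had far fewer counts. It measured 1.995, 1.96 and 0.498 CPM in Mef2>+, and 0.0883, 0.0405 and 0.198 in Mef2>Deaf1. In Mef2>whiteRNAi it measured 0, 0 and 0.163 CPM, in Mef2>Deaf1RNAi 0.11, 0.126 and 0.0979, and in the libraries labelled Gsk3CA 0.292, 0.129 and 0.846. TwdlL reached the level asked for by the filter on low counts (0.466 CPM) only in the 3 Mef2>+ libraries and 1 library labelled Gsk3CA. It was thus tested only because it is high in Mef2>+, which fixes its direction against Mef2>+, and its calls there add no support. The fitted values were −3.73 (SE 1.08, adjusted p = 0.042) in Mef2>Deaf1 and −4.67 (SE 1.15, adjusted p = 0.017) in Mef2>whiteRNAi. The first call was lost in every fit without 1 replicate except that without Mef2>+ replicate 3 (−4.42 to −3.33, adjusted p up to 0.138), and the second without Mef2>+ replicate 1 or Mef2>whiteRNAi replicate 1 or 2 (−4.40, −4.18 and −4.05). For TwdlL, every library of Mef2>Deaf1, Mef2>whiteRNAi and Mef2>Deaf1RNAi lay below every Mef2>+ library, a direction that the filter fixed. The highest library labelled Gsk3CA was again replicate 3.

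TwdlN, on the other strand of the same cluster, followed a different order. In Mef2>Deaf1 it measured 1.63, 1.62 and 1.39 CPM. These values lay below the 2.66 and 2.43 CPM of Mef2>+ replicates 1 and 2, and TwdlN had no count in Mef2>+ replicate 3. No comparison of TwdlN passed the test. Reads that could come from more than 1 Tweedle gene were not resolved here, and sequence similarity within the cluster was not examined. The limma voom test did not call TwdlP or TwdlO in either comparison, with adjusted p-values of 0.21 and 0.354 for Mef2>Deaf1 and of 0.136 and 0.391 for Mef2>whiteRNAi against Mef2>+.

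**Figure D3:**
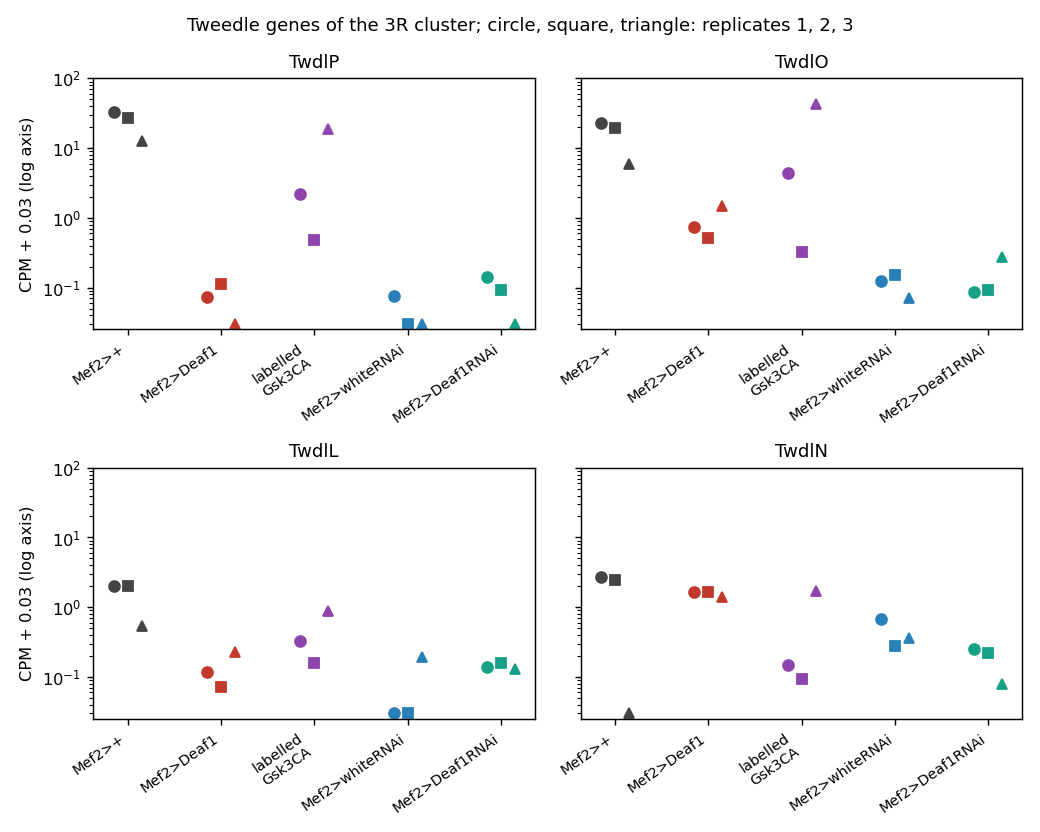
CPM plus 0.03, on a log axis, of 4 genes of the 3R Tweedle cluster in each library; circles, squares and triangles are replicates 1, 2 and 3. TwdlP, TwdlO and TwdlL lie highest in Mef2>+ and in replicate 3 labelled Gsk3CA, whereas TwdlN is also expressed in Mef2>Deaf1 and had no count in Mef2>+ replicate 3.

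The other Tweedle genes moved in several directions. TwdlG and TwdlU belong to another group of neighbours on 3R. TwdlG measured 16.5, 12.6 and 16.6 CPM in Mef2>+, 11.4, 8.09 and 11.5 in Mef2>Deaf1, and 12.8, 13.3 and 6.39 in the libraries labelled Gsk3CA. It measured 1.81, 2.34 and 5.21 CPM in Mef2>whiteRNAi and 6.03, 5.80 and 7.93 in Mef2>Deaf1RNAi. Both RNAi genotypes lay below Mef2>+, and Mef2>whiteRNAi was lowest. The fall in Mef2>whiteRNAi against Mef2>+ was 4.87-fold (−2.28, SE 0.38, adjusted p = 0.0030), and the call held without any single replicate. Mef2>Deaf1RNAi lay above Mef2>whiteRNAi in all libraries, which did not pass the test (1.08, SE 0.37, adjusted p = 0.094), and passed it without Mef2>whiteRNAi replicate 3 (1.66, adjusted p = 0.0077). The difference between the RNAi and the overexpression effect was 1.64 (SE 0.51, adjusted p = 0.048), a call that was lost in 11 of the 12 fits without 1 replicate (1.37 to 2.21) and held only without Mef2>whiteRNAi replicate 3.

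TwdlU measured 8.24, 8.10 and 7.42 CPM in Mef2>+ and 6.49, 8.42 and 6.74 in Mef2>Deaf1. It measured 4.44, 4.81 and 2.59 CPM in those labelled Gsk3CA, 2.60, 3.78 and 5.54 in Mef2>whiteRNAi and 5.05, 4.73 and 3.96 in Mef2>Deaf1RNAi. The first 2 genotypes overlapped, and the other 3 all lay below both. Against Mef2>+, TwdlU was 1.998-fold lower in those labelled Gsk3CA (−0.999, SE 0.27, adjusted p = 0.031) and 1.99-fold in Mef2>whiteRNAi (−0.99, SE 0.27, adjusted p = 0.028). The first call held without Mef2>+ replicate 3 and was lost in the other 5 fits without 1 replicate, where the value ran from −1.16 to −0.65, the last without replicate 3 labelled Gsk3CA (adjusted p = 0.087). The second held without Mef2>whiteRNAi replicate 3 and was lost in the other 5 (−1.04 to −0.76, adjusted p up to 0.105).

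TwdlBeta lies apart from the other Tweedle genes, on chromosome arm 2R. It measured 3.12, 1.89 and 3.43 CPM in Mef2>+ and 0.751, 0.526 and 0.495 in Mef2>Deaf1. It measured 0.512, 0.646 and 2.24 CPM in Mef2>whiteRNAi, 4.83, 3.47 and 2.01 in Mef2>Deaf1RNAi, and 1.67, 1.81 and 1.13 in the libraries labelled Gsk3CA. All Mef2>Deaf1 libraries lay below all Mef2>+ libraries, and the fall was 4.73-fold (−2.24, SE 0.55, adjusted p = 0.021). Over the fits without 1 replicate it ran from −2.46 to −2.08, and the call held only without Mef2>+ replicate 2 (adjusted p up to 0.084 otherwise). In the RNAi comparison the libraries overlapped through Mef2>whiteRNAi replicate 3, and the value was 1.60 (SE 0.53, adjusted p = 0.086). Without that replicate the value was 2.55 (adjusted p = 0.0058). The difference between the RNAi and the overexpression effect was 3.84 (SE 0.77, adjusted p = 0.0053), the largest of the differences that passed among the tested genes of these families, and it was called without any single replicate. The order of the libraries resembled that of the summed muscle markers. Of these, 9 of 10 were called lower in Mef2>Deaf1 than in Mef2>+, beside 7.38% of all genes. The part of the muscle markers in the result was not tested.

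TwdlX, also chosen after its values were seen, measured 0.972, 0.607 and 5.54 CPM in Mef2>+, 10.4, 9.57 and 15.3 in Mef2>whiteRNAi and 5.85, 3.58 and 10.9 in those labelled Gsk3CA. Mef2>+ replicate 3 thus lay far above the other Mef2>+ replicates, and neither comparison passed (2.30, SE 0.88, adjusted p = 0.094, and 1.49, SE 0.86, adjusted p = 0.244). Without that library both passed, at 3.87 (adjusted p = 0.024) and 3.04 (adjusted p = 0.034). TwdlM then had enough counts to be tested and was lower in Mef2>whiteRNAi than in Mef2>+ (−3.52, adjusted p = 0.027). It had 9 and 8 counts in Mef2>+ replicates 1 and 2 and 1 in each Mef2>whiteRNAi library. No Mef2>whiteRNAi library helped TwdlM past the filter on low counts, so this value adds no support.

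TwdlE, chosen here after its values were seen, was the only Tweedle gene with a negative difference of effects that passed (−2.65, SE 0.57, adjusted p = 0.0082). It measured 3.44, 3.32 and 3.27 CPM in Mef2>Deaf1 against 1.64, 1.28 and 1.05 in Mef2>+, and 0.987, 1.51 and 1.13 in Mef2>Deaf1RNAi against 4.56, 2.65 and 1.83 in Mef2>whiteRNAi. The libraries overlapped in neither comparison. Neither effect passed by itself, at 1.33 (SE 0.40, adjusted p = 0.051) and −1.31 (SE 0.40, adjusted p = 0.066). The difference was called in all 12 fits without 1 replicate (−2.91 to −2.23), and the RNAi effect passed without Mef2>whiteRNAi replicate 3 (−1.57, adjusted p = 0.035). TwdlE shares exon sequence with lectin-28C on the opposite strand, and whether the authors' counting used strand is not given in the sources used here.

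Among the chitinases, Cht7, Cht6 and Cht5 passed in at least 1 comparison, while Cht2, Cht3, Cht11 and Cht12 passed in none. Cht7 codes for a chitinase with a membrane anchor that in the beetle Tribolium is needed to order chitin in new cuticle. It measured 586, 571 and 518 CPM in Mef2>+, the highest of the 5 genotypes. It measured 393, 299 and 329 CPM in Mef2>Deaf1, 422, 409 and 303 in those labelled Gsk3CA, 383, 395 and 380 in Mef2>whiteRNAi, and 517, 466 and 368 in Mef2>Deaf1RNAi. Against Mef2>+, Cht7 fell in Mef2>Deaf1 (−0.71, SE 0.15, adjusted p = 0.010), in those labelled Gsk3CA (−0.56, SE 0.15, adjusted p = 0.031) and also in Mef2>whiteRNAi (−0.53, SE 0.15, adjusted p = 0.033), with no overlap in any of the 3. The first call held without any single replicate (−0.83 to −0.63). The second held only without Mef2>+ replicate 3 and the third likewise, and the second ran from −0.65 to −0.31, the last without replicate 3 labelled Gsk3CA (adjusted p = 0.14); the third ran from −0.58 to −0.50 with an adjusted p up to 0.098. The RNAi comparison gave 0.22 (SE 0.15, adjusted p = 0.41), and the difference between the RNAi and the overexpression effect was 0.94 (SE 0.21, adjusted p = 0.011).

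Cht6 has 16205 bases of exon in BDGP6, with overlapping exons of its transcripts merged. It measured 329, 282 and 596 CPM in Mef2>+, 163, 114 and 83.7 in Mef2>Deaf1, and 177, 185 and 107 in the libraries labelled Gsk3CA. It measured 65.9, 68.2 and 124 CPM in Mef2>whiteRNAi and 274, 183 and 69.4 in Mef2>Deaf1RNAi. Mef2>+ lay above every other library, and the Mef2>Deaf1RNAi libraries spread widely. Cht6 fell 3.35-fold in Mef2>Deaf1 (−1.74, SE 0.48, adjusted p = 0.034) and 4.68-fold in Mef2>whiteRNAi (−2.23, SE 0.49, adjusted p = 0.010). Without Mef2>+ replicate 3, its highest library, the first value was −1.35 (adjusted p = 0.130), and only the fit without Mef2>+ replicate 2 kept that call (−2.02 to −1.35 over the 6 fits). The second was lost only without Mef2>whiteRNAi replicate 1 (−2.06, adjusted p = 0.054). With replicate number as a block, which pairs the samples of Mef2>Deaf1 and Mef2>+, the first value was −1.79 (adjusted p = 0.060).

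Cht5 codes for a moulting chitinase and was the only chitinase called higher. It measured 312, 305 and 376 CPM in Mef2>Deaf1 against 223, 238 and 131 in Mef2>+. It measured 212, 205 and 289 CPM in those labelled Gsk3CA, 256, 289 and 201 in Mef2>whiteRNAi, and 237, 258 and 275 in Mef2>Deaf1RNAi. All Mef2>Deaf1 libraries were above all 12 others. The rise over Mef2>+ was 1.68-fold (0.75, SE 0.22, adjusted p = 0.042), with an adjusted p of 0.081 with the replicate block. Over the fits without 1 replicate the value ran from 0.52, without Mef2>+ replicate 3 (adjusted p = 0.125), to 0.90, without Mef2>+ replicate 2, which was the only fit of the 6 to keep the call.

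Cht2 and Cht11 varied widely between replicates of a genotype. Cht11 measured 10.9 CPM in Mef2>+ replicate 3, 14.965 and 11.8 in replicates 1 and 2 labelled Gsk3CA and 18.7 in Mef2>whiteRNAi replicate 3, and 20.7 to 37.8 in the other 11 libraries. The same 4 libraries had the lowest summed epidermis markers, a sum that moved mainly with ple, Ddc and e. Cht2 was also lowest in replicates 2 and 1 labelled Gsk3CA and in Mef2>+ replicate 3, at 127, 147 and 168 CPM, against 232 to 330 elsewhere. Without replicate 3 labelled Gsk3CA, Cht2 was called lower in the libraries labelled Gsk3CA than in Mef2>+ (−0.62, adjusted p = 0.040). The part of the summed epidermis markers in these values was not tested.

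Cht12, chosen with Twdlalpha after the values were seen, had counts mainly in the libraries labelled Gsk3CA. It measured 13.0, 15.7 and 2.96 CPM there, 1.77 in Mef2>+ replicate 3, 1.04 in Mef2>Deaf1 replicate 3 and at most 0.246 in the other 10 libraries. Twdlalpha measured 5.23, 5.49 and 1.36 CPM in the same 3 libraries, then 0.831 and 0.545 in the same pair, and at most 0.0615 elsewhere. Against Mef2>+ neither passed, at 4.01 (SE 1.55, adjusted p = 0.093) for Cht12 and 3.74 (SE 1.56, adjusted p = 0.119) for Twdlalpha. Without Mef2>+ replicate 3 both passed, at 6.84 (adjusted p = 0.026) and 6.87 (adjusted p = 0.034). Both genes passed the filter on low counts only through the libraries labelled Gsk3CA, which fixes this direction.

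The summed level of 8 testis markers had the same order of libraries: 190, 213 and 38.2 CPM in the libraries labelled Gsk3CA, 29.5 in Mef2>+ replicate 3, 13.1 in Mef2>Deaf1 replicate 3 and at most 2.81 elsewhere. Of the 7 testis markers tested, 2 were called higher in the libraries labelled Gsk3CA, beside 5.19% of all genes. In 6 of 7 the libraries did not overlap, beside 36.5% of all genes. Of the 7, can, sa, dj, Mst84Da and blanks passed the filter on low counts only through the libraries labelled Gsk3CA, which fixes their direction. Twdlalpha shares exon sequence on its own strand with CG32568, which measured 7.60, 10.8 and 1.27 CPM in the libraries labelled Gsk3CA. Cht12 overlaps Cht8 on the other strand, and Cht8 stayed at or below 0.337 CPM in every library. The part of the testis level in these results was not tested.

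**Figure D4:**
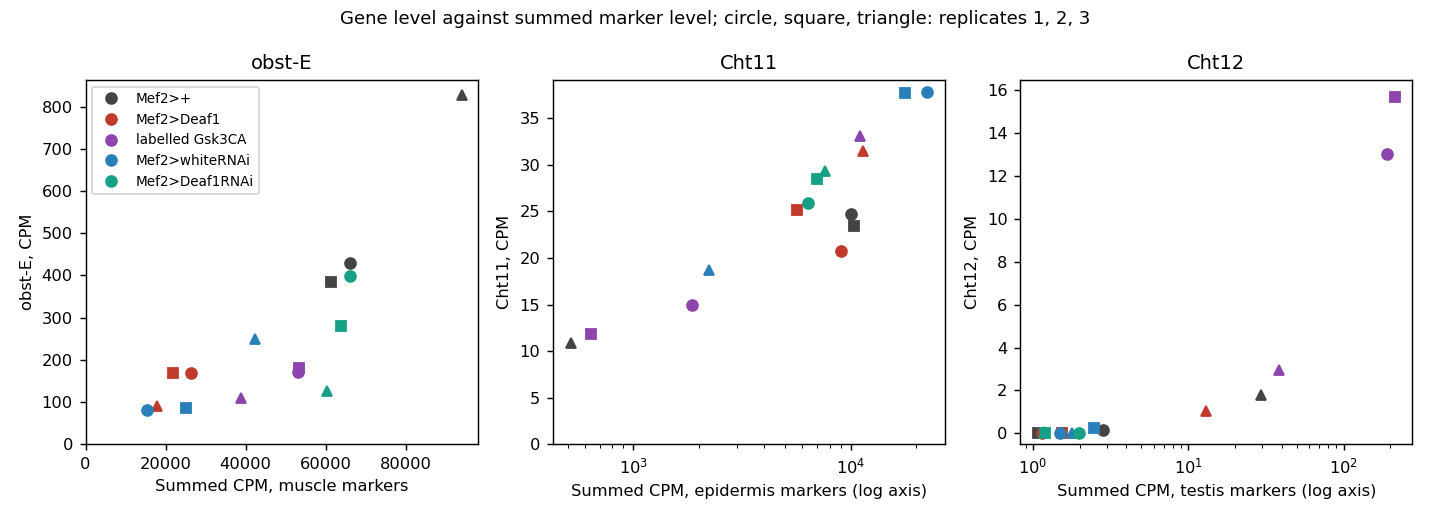
Level of obst-E against 10 summed muscle markers, of Cht11 against 6 summed epidermis markers and of Cht12 against 8 summed testis markers, each in CPM, with log horizontal axes for the last 2; each point is a library, coloured by genotype, and circles, squares and triangles are replicates 1, 2 and 3. Mef2>+ replicate 3 has the highest obst-E and summed muscle markers and the lowest Cht11 and summed epidermis markers. The epidermis sum moved mainly with the tanning genes ple, Ddc and e. Cht12 is high only where the testis markers are.

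Idgf1 and Idgf3 made up 2 of the 3 genes higher in Mef2>Deaf1 and both of those higher in Mef2>whiteRNAi. Idgf1, Idgf2 and Idgf3 are direct neighbours on chromosome arm 2L, and the outer pair rose in Mef2>Deaf1 and in Mef2>whiteRNAi while Idgf2, between them, did not pass in any comparison. Idgf1 measured 34.8, 27.2 and 46.3 CPM in Mef2>Deaf1 against 11.6, 10.7 and 6.87 in Mef2>+. It measured 27.5, 27.5 and 17.4 CPM in Mef2>whiteRNAi, 12.6, 14.3 and 16.4 in Mef2>Deaf1RNAi and 8.80, 8.33 and 14.2 in the libraries labelled Gsk3CA. Mef2>Deaf1 and Mef2>whiteRNAi lay above all libraries of the other 3 genotypes.

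Idgf1 rose 3.72-fold in Mef2>Deaf1 (1.90, SE 0.28, adjusted p = 0.0016) and 2.49-fold in Mef2>whiteRNAi (1.31, SE 0.28, adjusted p = 0.0089) against Mef2>+. Both calls held without any single replicate. In Mef2>Deaf1RNAi it lay below Mef2>whiteRNAi in all libraries without passing the test (−0.74, SE 0.27, adjusted p = 0.118). The difference between the RNAi and the overexpression effect was −2.64 (SE 0.39, adjusted p = 0.0009). The libraries labelled Gsk3CA overlapped Mef2>+ (0.10, SE 0.28, adjusted p = 0.847).

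Idgf3 had the same direction and a smaller size. It measured 98.2, 90.5 and 116 CPM in Mef2>Deaf1 and 117, 110 and 99.4 in Mef2>whiteRNAi, against 70.1, 70.8 and 75.7 in Mef2>+. It measured 103, 103 and 89.1 CPM in Mef2>Deaf1RNAi and 74.8, 66.8 and 93.8 in the libraries labelled Gsk3CA. Against Mef2>+ the rise was 1.41-fold in Mef2>Deaf1 (0.49, SE 0.13, adjusted p = 0.026) and 1.51-fold in Mef2>whiteRNAi (0.59, SE 0.13, adjusted p = 0.0093). The first call held only without Mef2>Deaf1 replicate 2 (0.39 to 0.57 over 6 fits, adjusted p = 0.061 without Mef2>+ replicate 3), and the second was lost only without Mef2>whiteRNAi replicate 1 (0.54, adjusted p = 0.0503). The difference of effects passed at −0.64 (SE 0.18, adjusted p = 0.030) and was lost in 9 of 12 fits without 1 replicate (−0.72 to −0.53) and with the replicate block (adjusted p = 0.0501). Idgf2 ranged from 67.4 to 118 CPM over the 15 libraries, and its log2 fold changes ran from −0.19 to 0.13 in the 4 comparisons.

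Idgf4, on the X chromosome, had the highest level of the family and was lower in the libraries labelled Gsk3CA. It measured 291, 255 and 327 CPM there, below all other libraries of the study. It measured 515, 501 and 409 CPM in Mef2>+, 371, 379 and 410 in Mef2>Deaf1, 619, 629 and 449 in Mef2>whiteRNAi and 551, 555 and 525 in Mef2>Deaf1RNAi. The fall against Mef2>+ was 1.63-fold (−0.71, SE 0.14, adjusted p = 0.0094), and the call held without any single replicate of either genotype, replicates 3 included. With only the 6 libraries of this comparison in the fit it did not pass (−0.63, adjusted p = 0.094). Idgf5 stayed between 0.611 and 5.42 CPM and did not pass in any comparison, but passed in the libraries labelled Gsk3CA without their replicate 3 (1.32, adjusted p = 0.049).

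**Figure D5:**
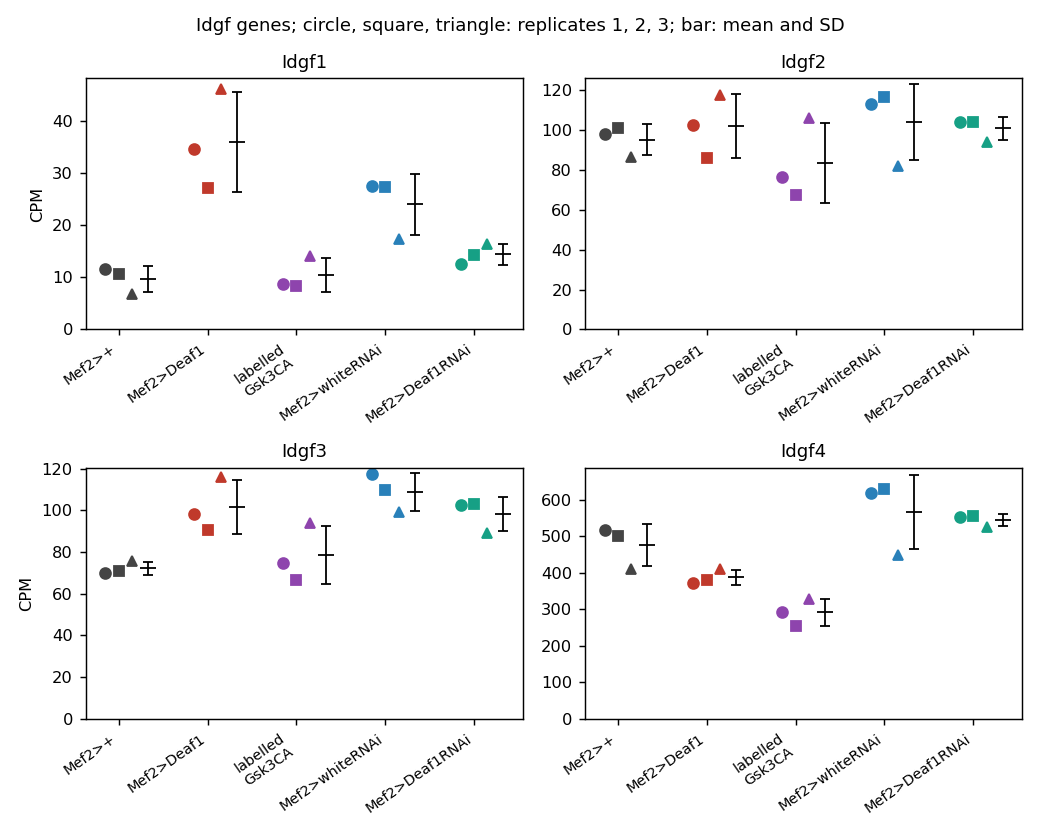
CPM of 4 Idgf genes in each library, on linear axes from 0; circles, squares and triangles are replicates 1, 2 and 3, and the bar beside them is the mean and SD of the 3 replicates. Idgf1 is highest in Mef2>Deaf1 and next in Mef2>whiteRNAi, Idgf2 overlaps across genotypes, and Idgf4 is lowest in the libraries labelled Gsk3CA.

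Of the obstructors, obst-A, obst-B and obst-E were tested. All 3 were called lower in the libraries labelled Gsk3CA, where 8.87% of all tested genes were. The other 5 obstructors had at most 9 counts in any library. The product of obst-A organises the chitin matrix of the larval cuticle. obst-A measured 96.8, 94.6 and 118 CPM in the libraries labelled Gsk3CA, against 260, 247 and 276 in Mef2>+. It measured 321, 194 and 222 CPM in Mef2>Deaf1, 282, 232 and 194 in Mef2>whiteRNAi and 304, 231 and 176 in Mef2>Deaf1RNAi. No library outside those labelled Gsk3CA was below 176 CPM. The fall was 2.54-fold (−1.34, SE 0.22, adjusted p = 0.0043), and obst-A was, of the 6 genes lower there, the only gene also called with the libraries of this comparison alone and without each single replicate.

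obst-B measured 58.2, 53.1 and 41.0 CPM in the libraries labelled Gsk3CA and 106, 101 and 138 in Mef2>+. It measured 99.9, 108 and 87.9 CPM in Mef2>Deaf1, 60.9, 71.6 and 115 in Mef2>whiteRNAi and 136, 102 and 66.9 in Mef2>Deaf1RNAi. The libraries labelled Gsk3CA were again the lowest of the 15, by a narrow margin. The fall was 2.27-fold (−1.18, SE 0.27, adjusted p = 0.018), and the call was lost without replicate 3 (−0.93, adjusted p = 0.053) or replicate 2 (−1.22, adjusted p = 0.061) labelled Gsk3CA.

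obst-E, whose product sets how far the larval cuticle can stretch and so the shape of the pupa, had the widest range of the family. It measured 430, 383 and 827 CPM in Mef2>+, 169, 169 and 89.5 in Mef2>Deaf1 and 170, 181 and 109 in the libraries labelled Gsk3CA. It measured 81.2, 86.1 and 249 CPM in Mef2>whiteRNAi and 399, 280 and 125 in Mef2>Deaf1RNAi. Mef2>Deaf1, the libraries labelled Gsk3CA and Mef2>whiteRNAi all lay below Mef2>+. obst-E fell 3.84-fold in Mef2>Deaf1 (−1.94, SE 0.53, adjusted p = 0.034), 3.56-fold in those labelled Gsk3CA (−1.83, SE 0.53, adjusted p = 0.040) and 3.94-fold in Mef2>whiteRNAi (−1.98, SE 0.53, adjusted p = 0.026).

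None of these 3 obst-E calls held without Mef2>+ replicate 3, where the values were −1.51 (adjusted p = 0.125), −1.43 (0.071) and −1.55 (0.092). Without other single replicates the calls for Mef2>Deaf1 and the libraries labelled Gsk3CA were lost as well, except that for Mef2>Deaf1 without Mef2>+ replicate 2, and that for Mef2>whiteRNAi was lost without its replicate 1 or 2 (−1.71 and −1.73); the values ran from −2.14 to −1.51, −2.06 to −1.43 and −2.71 to −1.55. With the replicate block the value for Mef2>Deaf1 was −1.92 (adjusted p = 0.074). The RNAi comparison gave 0.95 (SE 0.52, adjusted p = 0.287), and the difference between the RNAi and the overexpression effect was 2.89 (SE 0.74, adjusted p = 0.020), lost without replicate 1 of Mef2>whiteRNAi (2.61, adjusted p = 0.053) or of Mef2>Deaf1RNAi (2.48, adjusted p = 0.054). Cht6 gave a difference of 2.77 (SE 0.67, adjusted p = 0.015). The muscle markers moved the same way. Of the 10, 9 were called lower in Mef2>Deaf1 and 10 in Mef2>whiteRNAi against Mef2>+, where 7.38% and 10.2% of all genes were lower. In the RNAi comparison 6 of 10 were called higher, beside 5.48% of all genes. The difference of effects was called positive for 10 of 10, beside 9.42%. In the libraries labelled Gsk3CA against Mef2>+ none of the 10 passed, though all 10 values were negative. For 8 of the 10 the libraries there did not overlap, beside 36.5% of all genes in either direction. Within Mef2>Deaf1RNAi, obst-E ran from 399 to 125 CPM while the summed muscle markers ran from 65970 to 60364. The part of the muscle markers in the obst-E and Cht6 results was not tested.

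The rest of the chitin pathway was taken from lists of genes that make, order, trim or resemble the products above. Gasp, an obstructor relative outside the name rule that lines the tracheal chitin, was lower in Mef2>whiteRNAi than in Mef2>+ (−1.42, SE 0.41, adjusted p = 0.036), and in Mef2>Deaf1 it had −1.25 (SE 0.41, adjusted p = 0.070). The first call was lost without Mef2>+ replicate 3 (−1.22, adjusted p = 0.108) and held only without Mef2>whiteRNAi replicate 3. Its Tweedle counterpart Tb did not have enough counts. Of the 6 tested genes for chitin precursors and chitin synthesis, none passed in the RNAi comparison (3 at an unadjusted p under 0.05) or for Mef2>Deaf1 (4 at that p), and 1 fell in the libraries labelled Gsk3CA, where 8.87% of all genes did. That gene was nst (−0.45, SE 0.09, adjusted p = 0.012), which acts in the synthesis of the chitin precursor; the call was lost only without replicate 2 labelled Gsk3CA (adjusted p = 0.057).

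In Mef2>whiteRNAi against Mef2>+, 3 of the same 6 fell, where 10.2% of all genes did. They were the chitin synthase gene kkv (−0.67, SE 0.20, adjusted p = 0.042), Gfat1, which makes the first amino sugar of the pathway (−0.80, SE 0.21, adjusted p = 0.024), and CG1969 (−0.83, SE 0.21, adjusted p = 0.020). Without Mef2>+ replicate 3 none of the 3 passed, at −0.60 (adjusted p = 0.119), −0.73 (0.073) and −0.75 (0.063). Over the 6 fits without 1 replicate the calls were lost in 5, 4 and 3. All 3 calls were also lost without Mef2>whiteRNAi replicate 1 or 2. The difference of effects was positive for 2 of the 6, kkv (0.98, SE 0.29, adjusted p = 0.037) and mmy, whose product makes the activated sugar for chitin synthase (0.99, SE 0.26, adjusted p = 0.024). Without Mef2>+ replicate 3 the kkv difference did not pass (0.91, adjusted p = 0.071) and the mmy difference did (0.78, adjusted p = 0.048). Over the 12 fits without 1 replicate, the kkv difference was lost in 10 (adjusted p up to 0.093). The mmy difference was lost in 6 of the 12 (adjusted p up to 0.067).

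Of the 7 tested genes for chitin assembly and deacetylation, 1 passed in each comparison with Mef2>+ (14.3%, near the 12.4%, 14.1% and 16.5% of all genes) and none in the RNAi comparison, where 1 had an unadjusted p under 0.05. The deacetylase gene verm fell in Mef2>Deaf1 (−1.63, SE 0.48, adjusted p = 0.047) and in Mef2>whiteRNAi (−1.86, SE 0.49, adjusted p = 0.023), and its difference of effects was positive (2.39, SE 0.68, adjusted p = 0.031). The chitin-ordering gene knk fell in the libraries labelled Gsk3CA (−0.47, SE 0.14, adjusted p = 0.046). The knk call was lost without replicate 1 or 2 of either genotype (−0.59 to −0.40 over the 6 fits) and held without either replicate 3. verm measured 564, 517 and 1033 CPM in Mef2>+, highest in replicate 3 like obst-E and Cht6. Without that library none of its calls held, at −1.25 (adjusted p = 0.170), −1.47 (0.083) and 2.003 (0.068). The first was lost in all 6 fits without 1 replicate. The second was lost in 3 of 6, also without Mef2>whiteRNAi replicate 1 or 2, and the difference of effects in 8 of 12.

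The 3 listed hexosaminidase genes were all tested. Whether each of them, fdl included, acts on chitin was not examined here. Hexo2 rose 1.84-fold in Mef2>Deaf1 (0.88, SE 0.15, adjusted p = 0.0037) at 163, 160 and 164 CPM against 94.2, 90.4 and 80.4 in Mef2>+, and this call held without any single replicate. Its difference of effects of −0.73 (SE 0.22, adjusted p = 0.038) was lost in 11 of the 12 fits without 1 replicate (−0.85 to −0.58). fdl rose 1.20-fold in Mef2>Deaf1RNAi over Mef2>whiteRNAi (0.27, SE 0.07, adjusted p = 0.039), a call lost in 5 of the 6 fits without 1 replicate (0.23 to 0.32). Of the peritrophic matrix list 3 of 6 genes were tested, and Mur89F was higher than in Mef2>+ both in Mef2>whiteRNAi (1.68, SE 0.38, adjusted p = 0.013) and in the libraries labelled Gsk3CA (1.86, SE 0.39, adjusted p = 0.012). The second call held without any single replicate, and the first was lost without Mef2>+ replicate 1 or Mef2>whiteRNAi replicate 2 (1.27 to 1.99 over the 6 fits, adjusted p up to 0.054).

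The ecdysone response list held receptor and response genes of the moulting hormone, which need not all move together. It gave 2 of 16 tested genes lower in the RNAi comparison and 1 lower in Mef2>Deaf1. It also gave 2 lower in the libraries labelled Gsk3CA, and 2 higher and 1 lower in Mef2>whiteRNAi. These are 12.5%, 6.25%, 12.5% and 18.75% of the list, next to 8.81%, 12.4%, 14.1% and 16.5% of all genes, so the list lay near the background. Its summed level was lowest in Mef2>+ replicate 3 and in replicates 2 and 1 labelled Gsk3CA, at 2202, 2308 and 2562 CPM, and ran from 3639 to 5342 in the other 12 libraries. These 3 libraries were also those with the lowest Cht2, Cht11 and summed epidermis markers. Not all genes of the list followed its sum. In Mef2>+ replicate 3, where the sum was lowest, ftz-f1 was at its highest, 17.0 CPM. A large part of the sum was br, which ran from 773 to 2485 CPM. The part of the summed ecdysone list in the Cht2 and Cht11 values was not tested.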

How the data were processed

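Read counts per gene symbol for 15 libraries of filleted larvae (5 genotypes, 3 biological replicates each) were used as the authors deposited them, as unnormalized counts. Per the study's methods, stranded paired-end reads were aligned with STAR to BDGP5 and counted with HTSeq; the strand and overlap settings are not given in the sources used here. Special entries (no feature, ambiguous) were left out; no-feature reads were 3.36% to 6.75% and ambiguous reads 1.74% to 3.07% of all entries.

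Genes were kept by edgeR's filterByExpr on genotype (10930 kept), scaled by TMM and tested with edgeR 4.0.16 (quasi-likelihood, all 15 libraries, 1 mean per genotype), with Benjamini-Hochberg adjustment over all tested genes. CPM uses TMM-scaled library sizes; DESeq2 1.42.0 and limma voom 3.58.1 were alternatives in R 4.3.3. Across all tested genes, same-numbered samples of Mef2>Deaf1 and Mef2>+ deviated together (correlations of 0.30, 0.24 and 0.48), so the replicate block is given there where it changes a call.

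Values in every library are given for genes past the threshold in any of the 4 comparisons and for the member of highest level per kb in each family. Members and lists were chosen with earlier results of these data known. All 49 symbols were matched to the BDGP6 annotation, which gave arms, gene order, exon length and overlaps; the files use BDGP5, so no coordinates are printed. Sequences were not used here.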

Additional observations from a re-analysis of the deposited data

How the results depend on the processing

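Each count was recomputed with RLE size factors, DESeq2, limma voom, no filter beyond 1 count, at least 10 counts in every library, only the libraries compared, a replicate block, and without each replicate in turn. Counts within 1.5 times of those reported are not repeated. In the RNAi comparison DESeq2 called 2 genes higher and 1 lower, limma voom 1 higher, and the 10-count minimum 1 lower. For Mef2>Deaf1 against Mef2>+, the 10-count minimum, which removes the low Tweedle genes, left 4 lower. For the libraries labelled Gsk3CA, 3 were lower with RLE, 3 with the 10-count minimum and 1 with only the libraries compared; RLE moved the median of all genes there from −0.04 to 0.06. Between the controls, DESeq2 called 5 higher, and 5 were lower with the 10-count minimum and 5 with only the libraries compared. DESeq2 found 8 positive differences of effects.

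Without 1 replicate, counts ran from 0 to 2 higher and 0 to 1 lower for RNAi, 1 to 2 and 2 to 5 for Mef2>Deaf1, 0 to 3 and 2 to 5 for the libraries labelled Gsk3CA, 1 to 4 and 3 to 9 between the controls, and 3 to 6 and 2 to 3 for the difference. The lowest counts came without Mef2>+ replicate 1, Mef2>whiteRNAi replicate 1 or replicate 2 labelled Gsk3CA, and the highest mostly without replicate 3 of Mef2>whiteRNAi or Mef2>+.

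The replicate block gave 2 higher and 5 lower for Mef2>Deaf1, 4 lower for the libraries labelled Gsk3CA, 2 higher and 6 lower between the controls, and 0 for RNAi; outside Mef2>Deaf1 against Mef2>+, same-numbered samples had mean correlations of −0.10, −0.66 and 0.12 and share only a number.

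Of 1116 recomputed gene values, 28 changed sign, none of them of a called value. By setting these were obst-A for RNAi (−0.014 with limma voom, −0.0034 with the replicate block) and TwdlO in the libraries labelled Gsk3CA (0.041 with RLE, 0.046 with DESeq2, 0.021 with only the libraries compared). The rest came without 1 replicate, as ranges: for RNAi, Cht5 −0.088 to 0.17, Idgf4 −0.20 to 0.026, obst-A −0.22 to 0.18, TwdlO −0.55 to 0.90 and TwdlU −0.029 to 0.51; for Mef2>Deaf1, Cht3 −0.26 to 0.066 and obst-A −0.32 to 0.057; for the libraries labelled Gsk3CA, Cht3 −0.14 to 0.18, Idgf1 −0.12 to 0.24 and TwdlO −2.64 to 0.57; between the controls, Cht3 −0.21 to 0.11; and for the difference, obst-A −0.13 to 0.33. The causes were not tested. Genes under about 10 counts per library, most Tweedle genes among them, limit what could be seen at this depth.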
